A study of Mus musculus with 4 samples.

Results

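The distal ends of mouse chromosomes 1 to 19 were examined for changes in chromatin accessibility after loss of ASH2L. On each of these 19 chromosomes the largest end coordinate in the table of accessible intervals was taken as the chromosome end, and every interval starting within 2 Mb of it was kept. This rule used positions only, and it gave 2192 of the 119609 intervals in the table, from 10 on chromosome 17 to 216 on chromosome 15. The largest end coordinate lay 111 bp (chromosome 19) to 273224 bp (chromosome 8) inside the end of the mm9 assembly, and 10 of the 19 lay within 10 kb of it.

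Accessibility was measured with ATAC-seq, in which a transposase cuts and tags open DNA, in immortalized mouse embryo fibroblasts of the line iMEF2. These cells carry floxed Ash2l alleles (Ash2l fl/fl), a Cre recombinase fused to the estrogen receptor (Cre-ER) and a short hairpin RNA against Arf, which the control cells carry too. The +HOT group received 5 nM 4-hydroxytamoxifen (HOT) for 7 days, and the -HOT group received the ethanol vehicle. Each group had 2 libraries, which are technical replicates of a single cell line, so p-values measure the spread between libraries and not between cultures or animals. Effects of HOT or of Cre itself cannot be told apart from loss of ASH2L in this comparison, since Ash2l wild type cells are not analysed here. No accessible interval overlapped exon 4 of Ash2l, so the counts gave no check of the deletion. The promoters of all 11 fibroblast markers examined were accessible, at 10.6 to 70.8 CPM, the read count scaled to library size. Promoter levels of the other marker lists reached 17.7 CPM for blood, 15.4 for endothelial, 7.24 for epithelial, 5.03 for muscle and 24.7 for neural genes.

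ASH2L is a core subunit of the KMT2 complexes, which methylate histone H3 at lysine 4, a mark of promoters and enhancers. Mouse chromosomes are telocentric: the centromere lies next to one end, and the distal end runs through a subtelomeric stretch into long arrays of the repeat TTAGGG. These arrays are bound by the shelterin complex. Subtelomeric chromatin can carry heterochromatin marks, and in budding yeast the H3 lysine 4 methyltransferase complex is needed to silence genes near telomeres.

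The sequences of the sites that changed most, and of those nearest to the telomere repeats, are shown to let their composition be compared. Each is the central stretch of 200 bases of a site, on the plus strand of mm9. Capitals mark every match, on either strand, to the telomere repeat TTAGGG, the GC box GGGCGG, the AP-1 motif TGANTCA or the CCAAT box. Of the largest rises, 1 lay in an intron of Lars2 (chr9:123294546-123294745) and 1 between genes near B3galtl (chr5:150592635-150592834). The 3 largest falls lay at the promoter of Cth (chr3:157586585-157586784), in an intron of Baiap2 (chr11:119859135-119859334) and at the promoter of Sp8 (chr12:120084353-120084552). The outermost intervals with the largest rise and the largest fall lay at the ends of chromosome 14 (chr14:125141840-125142039) and chromosome 6 (chr6:149514636-149514835). The site at the promoter of Srms (chr2:180947555-180947754) was the only one of the 2192 with 2 adjoining telomere repeats in its central 300 bases.
Lars2 intron, gained: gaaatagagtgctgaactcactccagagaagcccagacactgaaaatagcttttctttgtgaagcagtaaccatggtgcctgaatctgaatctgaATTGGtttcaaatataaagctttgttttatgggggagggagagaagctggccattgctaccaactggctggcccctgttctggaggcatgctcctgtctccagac
near B3galtl, gained: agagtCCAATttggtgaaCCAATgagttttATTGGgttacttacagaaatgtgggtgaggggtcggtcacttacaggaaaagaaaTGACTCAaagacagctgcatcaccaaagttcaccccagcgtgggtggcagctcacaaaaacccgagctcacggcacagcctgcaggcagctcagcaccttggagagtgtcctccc
Cth promoter, lost: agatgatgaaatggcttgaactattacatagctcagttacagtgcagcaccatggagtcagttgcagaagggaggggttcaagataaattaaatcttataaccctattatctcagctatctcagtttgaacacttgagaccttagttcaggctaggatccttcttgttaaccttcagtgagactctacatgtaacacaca
Baiap2 intron, lost: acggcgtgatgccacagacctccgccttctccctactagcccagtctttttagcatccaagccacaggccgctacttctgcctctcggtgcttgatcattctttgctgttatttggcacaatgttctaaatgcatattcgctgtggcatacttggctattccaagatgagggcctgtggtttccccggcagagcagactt
Sp8 promoter, lost: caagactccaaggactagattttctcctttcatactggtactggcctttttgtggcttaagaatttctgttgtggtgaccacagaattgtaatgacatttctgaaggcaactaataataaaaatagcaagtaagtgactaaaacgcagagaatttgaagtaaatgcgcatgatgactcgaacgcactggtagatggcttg
end of chromosome 14, gained: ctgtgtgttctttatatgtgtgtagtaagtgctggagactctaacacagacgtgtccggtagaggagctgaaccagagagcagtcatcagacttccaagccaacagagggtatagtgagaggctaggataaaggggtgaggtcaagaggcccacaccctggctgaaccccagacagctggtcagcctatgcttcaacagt
end of chromosome 6, lost: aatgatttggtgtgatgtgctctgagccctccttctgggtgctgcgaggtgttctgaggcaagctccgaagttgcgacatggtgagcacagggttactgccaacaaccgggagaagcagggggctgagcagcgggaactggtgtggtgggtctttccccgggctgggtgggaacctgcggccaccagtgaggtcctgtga
Srms promoter, not called: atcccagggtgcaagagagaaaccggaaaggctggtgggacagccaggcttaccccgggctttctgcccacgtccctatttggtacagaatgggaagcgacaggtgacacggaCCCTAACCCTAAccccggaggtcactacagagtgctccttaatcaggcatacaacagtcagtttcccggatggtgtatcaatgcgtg
The site near B3galtl held 3 CCAAT boxes and 1 AP-1 motif, and the Lars2 intron held 1 CCAAT box. In the Cth, Baiap2 and Sp8 stretches and in both outermost ones none of the 4 motifs was found. GC content ran from 39.0% at the Sp8 promoter to 60.5% at the end of chromosome 6. The repeat pair at the Srms promoter, which reads as TTAGGG on the minus strand, lay 720046 bp from the chromosome end, and the site was at 4.63 and 3.75 CPM in +HOT and 4.67 and 4.95 CPM in -HOT. Both +HOT libraries lay just below both -HOT libraries, and the site was not called (log2 fold change -0.19, SE 0.18, edgeR quasi-likelihood test, adjusted p = 0.411).

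Accessibility at the chromosome ends changed in both directions. A site was called gained or lost when edgeR's quasi-likelihood test gave a Benjamini-Hochberg adjusted p under 0.05 over all sites and the log2 fold change (+HOT over -HOT) was beyond 0.40 in size. Of the 2192 end sites, all of which passed the filter on low counts, 521 (23.8%) were gained and 296 (13.5%) were lost. Over all 119603 tested sites these shares were 21.3% and 14.2%. The median log2 fold change was 0.02 at the ends and 0.00 over all tested sites, and it ran from 0.02 to 0.04 at the ends in the 4 pairings of a +HOT with a -HOT library. The calls depended on the scaling: with factors set on sites away from promoters, 461 end sites were gained and 399 lost, which lowered the gained share of calls from 63.8% to 53.6%, beside 21860 gained and 22704 lost sites in the whole table. DESeq2 called 313 end sites gained and 222 lost, against 12.6% and 10.0% of all sites.

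The end sites held 1.95% and 1.94% of the reads in the 2 +HOT libraries and 1.96% and 1.95% in the 2 -HOT libraries. These shares overlapped between the groups (exact two-sided permutation test over the 4 libraries, p = 0.667, where 0.333 is the smallest value possible). Among reads in sites away from promoters, the ends held 1.76% and 1.77% in +HOT and 1.70% and 1.70% in -HOT. Both +HOT values were above both -HOT values there, with the exact two-sided permutation test at its smallest p of 0.333.

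The outermost 100 kb had the highest share of gained and of lost sites among 12 distance bins. Of 112 sites within 0.1 Mb of the end, 35 (31.3%) were gained and 20 (17.9%) were lost, and both shares were above those over all sites, 21.3% and 14.2%. Between 0.25 and 0.5 Mb, 17.7% of 294 sites were gained and 12.9% lost. From 0.5 to 2 Mb the gained share stood between 22.7% and 25.8% in each of the 3 bins. Across the boundary of the rule, 22.7% were gained and 12.7% lost at 1.5 to 2 Mb and 21.5% and 12.8% at 2 to 2.5 Mb, with a gained share of 19.1% at 2.5 to 4 Mb. The site just inside it, near Krt82 on chromosome 15, was at 5.13 CPM in +HOT and 3.13 in -HOT, and the site just outside it, near Brwd1 on chromosome 16, was at 37.3 and 40.3 CPM. Across the 2192 end sites the log2 fold change had no order by distance (Pearson's r = 0.01, Spearman's rho = 0.03, as a description of sites that share 4 libraries). Chromosome 19 alone gave 7 of the 35 gained sites of the outermost 100 kb, and without it 28 of 103 (27.2%) were gained and 19 (18.4%) lost.

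**Figure D1:**
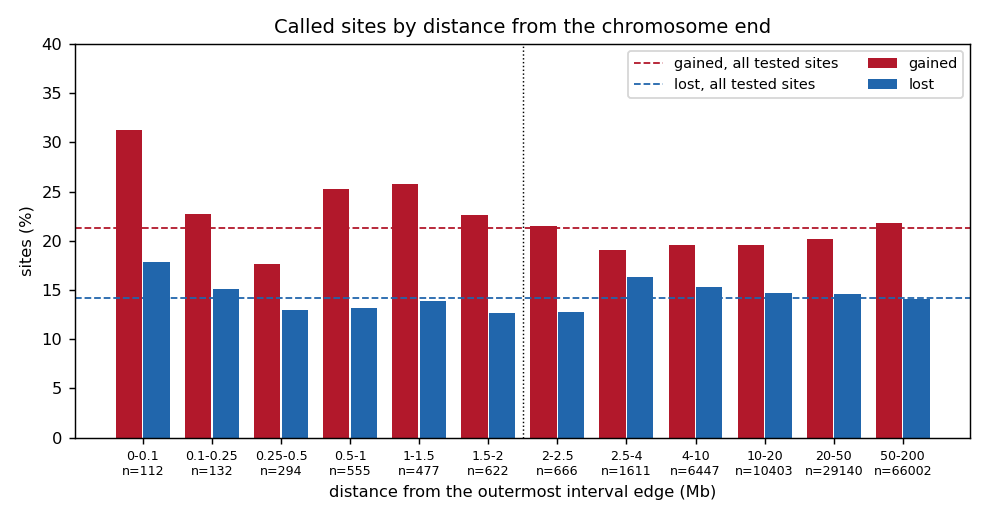
Share of tested sites called gained (red) or lost (blue), in percent, by distance in Mb from the outermost interval edge of chromosomes 1 to 19, with the number of sites under each bin. Dashed lines give the shares over all tested sites (21.3% and 14.2%), the dotted line the 2 Mb boundary, and the outermost 0.1 Mb has the tallest gained bar, 31.3%.

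The outermost interval of each chromosome was the accessible site nearest to the telomere. Of these 19 intervals 6 were gained, 3 were lost and 10 were not called. Over all intergenic sites, the class of 78.9% of the 19, 28.4% were gained and 9.28% lost. In 13 of the 19 both +HOT libraries lay above both -HOT libraries, and in 4 both lay below. These orders were seen in 45.9% and 24.9% of all intergenic sites and in 36.1% and 34.7% of all tested sites. On chromosome 14, 65590 bp upstream of Fgf14, whose product regulates sodium channels from inside the cell, the interval was at 1.65 and 1.76 CPM in +HOT and at 0.17 and 0.27 in -HOT. It had the lowest -HOT level and the largest rise of the 19 (log2 fold change 2.97, SE 0.43, edgeR adjusted p = 7.3e-09). On chromosome 2, the outermost interval near Gm14496 was at 9.41 and 11.9 CPM against 3.14 and 3.51 (1.68, SE 0.15, edgeR adjusted p = 9.97e-18). On chromosome 19, the interval beyond Csf2ra, a subunit of the receptor for the cytokine GM-CSF, was at 30.3 and 31.8 CPM against 13.8 and 13.9 (1.17, SE 0.10, edgeR adjusted p = 9.51e-19). On chromosome 13, the interval at the promoter of Gm7120 rose from 8.28 and 11.9 to 19.9 and 22.1 CPM (1.07, SE 0.11, edgeR adjusted p = 4.83e-14). It was the only one of the 19 at a promoter. The remaining rises were smaller. The rise in an intron of Tmem196 on chromosome 12 (0.66, SE 0.19) was not called by DESeq2, with the GC trend removed, or without +HOT replicate 1 or -HOT replicate 1. The rise near Klhl17 on chromosome 4 (0.71, SE 0.23) was not called by DESeq2, or without +HOT replicate 2 or -HOT replicate 2.

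The 3 lost intervals were clearly open in -HOT. On chromosome 6, beyond Bicd1, which links cargo to the dynein motor, the interval was at 2.53 and 2.71 CPM in +HOT and at 6.56 and 5.99 in -HOT (log2 fold change -1.27, SE 0.18, edgeR adjusted p = 9.27e-09). On chromosome 17 the interval beyond Gm10492 was at 14.2 and 12.1 CPM against 24.3 and 24.5 (-0.88, SE 0.11, edgeR adjusted p = 7.46e-12). On chromosome 16 the interval near B230307C23Rik was at 23.8 and 21.3 CPM against 37.5 and 38.9 (-0.76, SE 0.10, edgeR adjusted p = 1.79e-10). In all 3 both +HOT libraries lay below both -HOT libraries, as in at least 293 of the 296 lost end sites. The highest of the 19, near Cr2 at the end of chromosome 1, was at 66.1 and 72.1 CPM in +HOT and 55.6 and 59.8 in -HOT, a difference too small to be called (0.26, SE 0.09).

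**Figure D2:**
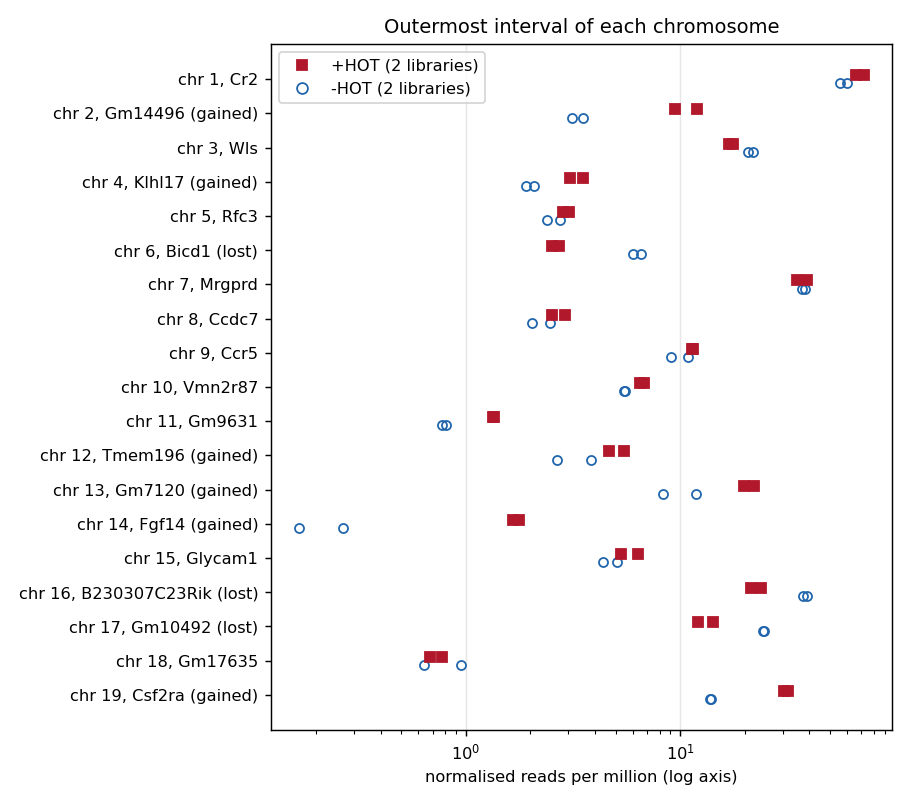
Level in CPM (log axis) in the outermost interval of each of the 19 chromosomes, labelled by its nearest gene, with red squares for the 2 +HOT libraries and open blue circles for the 2 -HOT libraries. The red squares stand to the right of the blue circles in the 6 gained intervals, farthest at the end of chromosome 14, and to the left in the 3 lost ones.

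Neighbouring outer sites moved in opposite directions at several ends. On chromosome 19, 9 sites lay in the outermost 100 kb, of which 7 were gained and 1 lost. A site 2610 bp from the end rose from 3.17 and 4.69 to 7.79 and 9.30 CPM (1.13, SE 0.16), and a site 76326 bp from the end near Gm6020 rose from 1.31 and 1.87 to 3.62 and 4.42 CPM (1.34, SE 0.24). The single lost site of this stretch was the promoter of Csf2ra itself, at 17.2 and 18.1 CPM in +HOT and 34.1 and 28.9 in -HOT (-0.84, SE 0.10, edgeR adjusted p = 1.08e-11). Of the 7 gained sites, the 2 near Gm6020 with a log2 fold change of 0.89 and 1.20 were not called by DESeq2.

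On chromosome 17 the end held only 10 sites. Of these, 6 sites between 0.47 and 2.33 CPM in the -HOT libraries were gained and 2 sites above 20 CPM in both -HOT libraries were lost. The Gm10492 promoter went from 42.9 and 41.3 to 30.8 and 26.1 CPM (-0.56, SE 0.10) and the other lost site was the outermost interval. Of the gained ones, a site 5401 bp from the end was at 2.84 and 2.53 CPM in +HOT against 0.47 and 0.84 in -HOT (2.06, SE 0.31, edgeR adjusted p = 3.1e-08). A site 1103398 bp from the end, nearest to Adcyap1, was at 2.49 and 2.80 CPM against 0.53 and 0.60 (2.22, SE 0.32, edgeR adjusted p = 7.46e-09). DESeq2 did not call 3 of the 6, the 2 in introns of the RNA methyltransferase gene Mettl4 and the 1 lying 6928 bp from the end. The promoter of Mettl4 was at 25.2 and 23.6 CPM against 30.0 and 27.3 and was not called.

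Summed over whole ends, the changes were small. The reads of all sites in the outermost 2 Mb were added per library and fitted with all other 2 Mb windows counted back from the ends, and a window was called at an adjusted p under 0.05 with no fold minimum. Of the 19 end windows 3 were higher in +HOT, 9 were lower and 7 were not called, while 17.4% of all 1154 windows were higher and 46.4% lower. The median log2 fold change was -0.05 over the end windows and -0.06 over all windows. The split followed the scaling: with library totals in place of the trimmed mean 9 ends were higher and 8 lower, beside 37.0% and 30.5% of all windows. It also rested on single libraries, with 0 higher and 3 lower ends left without -HOT replicate 1 and 1 higher and 4 lower without -HOT replicate 2.

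The largest rise was at the end of chromosome 12, where the summed level was 536 and 515 CPM in +HOT and 478 and 483 in -HOT (log2 fold change 0.13, SE 0.03, edgeR adjusted p = 5.9e-05). The ends of chromosomes 1 and 13 were higher by 0.09 and 0.08. The largest falls were at the ends of chromosome 17, with 88.1 and 79.2 CPM against 106 and 100.4 (-0.30, SE 0.05, edgeR adjusted p = 5.91e-08), chromosome 18, with 163 and 159.6 CPM against 192 and 196 (-0.26, SE 0.04, edgeR adjusted p = 3.24e-10), and chromosome 10, with 660.4 and 644 CPM against 788 and 757 (-0.24, SE 0.03, edgeR adjusted p = 3.46e-15). In these windows both +HOT libraries stood on the same side of both -HOT libraries. At the end of chromosome 17 the sum fell although 6 of the 10 sites were gained, with a median site log2 fold change of 0.85. The least changed end was that of chromosome 19, at -0.003 (SE 0.03), although 36 of its 131 sites were gained and 11 lost.

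The windows were also fitted with intragenic and intergenic sites only, with the library sizes and scaling factors of the fit of all sites. In that fit 10 end windows were higher and 5 lower, beside 41.0% and 28.2% of 1145 windows. Scaling with library totals, promoters kept, gave the 9 and 8 above. The end of chromosome 2 had the largest of these differences, 0.37 (SE 0.05, edgeR adjusted p = 7.61e-05), against 0.00 in the fit of all sites. The strongest site of that end, near Polr3k and described below, differed widely between the libraries of a group, and its part in the 0.37 was not tested. The end of chromosome 6 went from -0.03 to 0.18 and that of chromosome 16 from 0.05 to 0.18. The ends of chromosomes 5, 10, 11, 15 and 18 were lower in both fits. That of chromosome 17, the largest fall in the fit of all sites, was not called here (-0.06, SE 0.07).

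**Figure D3:**
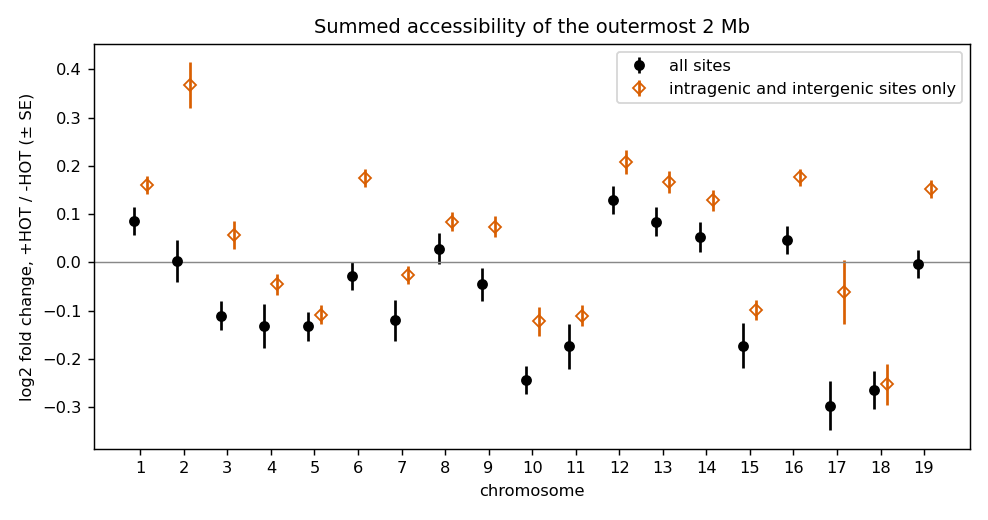
Log2 fold change (+HOT over -HOT, with SE) of the reads summed over the outermost 2 Mb of each chromosome, for all sites (black circles) and for intragenic and intergenic sites only (orange diamonds). The diamonds lie above the circles on all 19 chromosomes, by the largest step at the end of chromosome 2 (0.00 and 0.37).

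The ends differed widely in what they contain. They held 525 protein-coding genes, or 13.8 per Mb against 8.87 per Mb over the whole of the same chromosomes, and 57.7 accessible sites per Mb against 48.2. Protein-coding genes per end ran from 3 on chromosome 17 to 87 on chromosome 10. A site was called a promoter site when its centre lay within 3000 bp of a transcription start, and 506 of the end sites (23.1%) were promoters, compared with 17.2% of all tested sites. At the ends of chromosomes 2, 4, 11 and 15 promoters made up 36.0% to 44.3% of the sites, and at the end of chromosome 8 they made up 6.63%. Over the 19 ends, a higher promoter share went with a lower summed log2 fold change (Pearson's r = -0.48, Spearman's rho = -0.66, n = 19 ends in the same 4 libraries).

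Promoter and non-promoter sites moved apart, at the ends as elsewhere. Of the 506 promoter sites 46 (9.09%) were gained and 121 (23.9%) lost, against 7.07% and 23.5% of all promoter sites, with a median log2 fold change of -0.21 in both sets. Of the 929 intergenic end sites 287 (30.9%) were gained and 82 (8.83%) lost, against 28.4% and 9.28% of all intergenic sites. Of the 757 intragenic end sites 188 (24.8%) were gained and 93 (12.3%) lost, against 19.5% and 15.5% of all intragenic sites. The intragenic median was 0.08 at the ends and -0.01 over all intragenic sites. No test was made of the difference between end sites and the rest. The promoter shift depended on the correction used. Removing the GC trend left a promoter median of -0.08 at the ends with 78 promoter sites lost, and offsets that follow each site's signal left 0.00 with 69 lost.

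GC content moved with the calls. All tested sites were split into 5 equal bins by GC content. In the lowest bin, 29.7% of 417 end sites and 29.5% of the other sites were gained. In the next 3 bins the gained share of end sites was 27.7%, 27.4% and 25.4%, and that of other sites 23.4%, 21.4% and 19.4%. In the highest bin, from 52.2% GC upwards, 13.8% of 603 end sites and 12.3% of the others were gained, while 18.6% and 18.9% were lost. The part of GC content in the differences between ends was not tested.

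**Figure D4:**
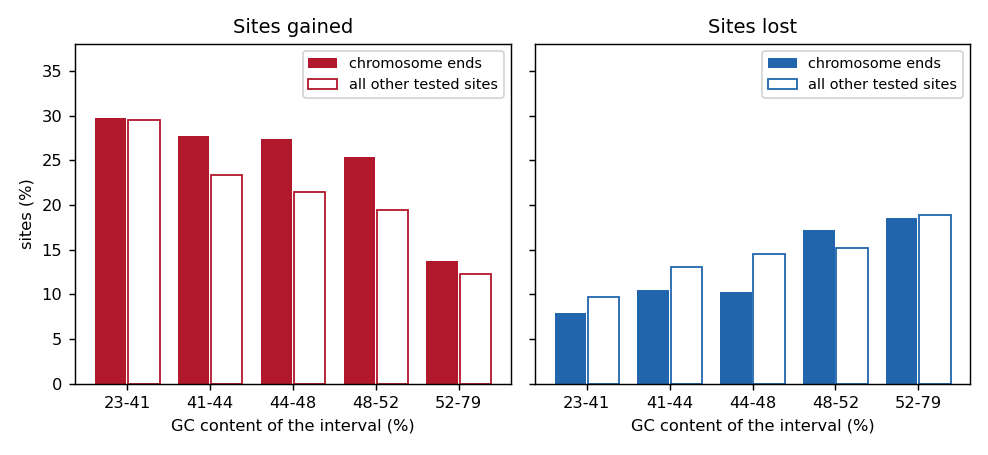
Percent of sites gained (left, red) and lost (right, blue) in 5 equal bins of all tested sites by the GC content of the interval in percent, for end sites (filled bars) and all other tested sites (open bars). Gained shares of end sites run from 29.7% in the lowest bin to 13.8% in the highest.

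The starts of the same chromosomes, taken as the 2 Mb after the outermost site next to the centromere, gave a comparison with the opposite end. Of their 1869 sites 495 (26.5%) were gained and 264 (14.1%) lost, with a median log2 fold change of 0.03. Their intergenic sites were gained in 37.8% of 764 and those of the distal ends in 30.9%. The difference between both sides of the chromosomes was not tested.

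By chromosome, the end of chromosome 16 stood out among the ends with at least 50 sites. It had 127 sites, of which 56 (44.1%) were gained and 13 (10.2%) lost, with a median log2 fold change of 0.36. The lowest gained shares were 10.6% of 189 sites on chromosome 11 and 13.4% of 216 sites on chromosome 15, and lost sites outnumbered gained ones on both. They did so on chromosome 10 too, with 23.7% lost and 18.6% gained. In a central stretch of the chromosome 16 end, which includes Dscam and whose bounds were drawn after the values were seen, 41 of 77 sites lying 0.51 to 1.749 Mb from the end were gained and 2 lost, and in the rest of that end 15 of 50 were gained and 11 lost. Without chromosome 16, 465 of 2065 end sites (22.5%) were gained and 283 (13.7%) lost.

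Within this stretch lies Dscam, which codes for a cell adhesion molecule of developing neurons. Of its 35 sites 19 were gained and none was lost, where 19.5% of all intragenic sites were gained and 15.5% lost. In all 19 gained sites both +HOT libraries were above both -HOT libraries, as in at least 483 of the 521 gained end sites. The 19 had log2 fold changes from 0.48 to 1.48, with means of 1.70 to 13.5 CPM in +HOT and 0.635 to 8.77 in -HOT. The largest rise, 1.42 Mb from the end, was from 2.17 and 1.31 to 4.95 and 4.92 CPM (1.48, SE 0.22, edgeR adjusted p = 1.05e-08). A site 1.45 Mb from the end rose from 1.92 and 2.14 to 5.06 and 4.88 CPM (1.30, SE 0.21, edgeR adjusted p = 1.41e-07). The site with the largest fall inside the gene was at 1.37 and 1.63 CPM against 2.19 and 2.11 and was not called (-0.53, SE 0.28). DESeq2 called 12 of the 19, and with any single library left out 14 to 16 were still called.

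**Figure D5:**
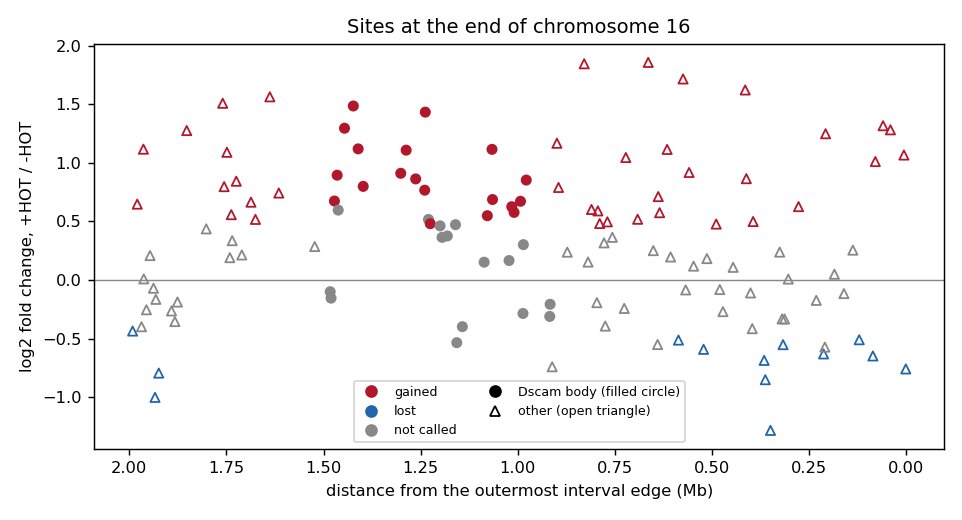
Log2 fold change (+HOT over -HOT) of the 127 sites at the end of chromosome 16 against distance from the outermost interval edge in Mb, with the end at the right. Filled circles are the 35 sites in the body of Dscam, of which 19 are gained (red) and none lost (blue), and open triangles are the other sites.

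Other long genes at the ends also held many sites. Over all intragenic sites 19.5% were gained and 15.5% lost, and over all promoter sites 7.07% and 23.5%. The counts by gene include promoter sites, 1 in Lars2, 3 in Shank2, 6 in Pard3, 2 in Bahcc1 and 2 in Ski. Of 20 genes with at least 10 end sites, Lars2, the mitochondrial leucyl-tRNA synthetase gene on chromosome 9, had 6 gained and 1 lost of 10. Shank2, a postsynaptic scaffold gene on chromosome 7, had 8 gained and 4 lost of 27. Pard3, a cell polarity gene on chromosome 8, had 10 gained and 5 lost of 47, near the shares of all intragenic sites. On 2 gene-rich ends no site of the gene was gained: Bahcc1 on chromosome 11 had 0 gained and 4 lost of 12 sites, and Ski, a co-repressor gene on chromosome 4, had 0 gained and 5 lost of 12.

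The largest rises were mostly at weak sites and lay away from promoters. The rule for large changes kept 776 called end sites with a mean of at least 1 CPM and no overlap between groups. Of these 776 sites, gained and lost together, 21.0% were promoters. Among all gained end sites 46 of 521 were promoters, and among all lost ones 121 of 296. None of the 12 largest rises lay at a promoter, while 4 of the 12 largest falls did. The median level was 1.53 CPM in these rises, 2.53 in these falls and 4.36 in all 776 sites. The intron site of Lars2 shown above was at 8.71 and 9.66 CPM in +HOT and 1.28 and 1.87 in -HOT (log2 fold change 2.55, SE 0.19, edgeR adjusted p = 1.16e-23). The site near B3galtl, which codes for a glucosyltransferase of O-fucosylated proteins, was at 1.72 and 2.08 CPM against 0.42 and 0.37 (2.25, SE 0.37, edgeR adjusted p = 3.4e-07). On the same chromosome, a site near Rxfp2, the receptor for INSL3, rose by 2.18 (SE 0.34) and a site near D730045B01Rik by 2.08 (SE 0.34).

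Other large rises lay in or near Itgb8, Itgbl1, Plxna2, Nrp1 and Tmem158, and no theme among these genes was tested. A site near the integrin gene Itgb8 on chromosome 12 was at 3.26 and 3.03 CPM against 0.56 and 0.90 (2.13, SE 0.29, edgeR adjusted p = 1.46e-09). An intron site of Itgbl1 on chromosome 14 was at 3.26 and 3.34 CPM against 0.64 and 0.87 (2.14, SE 0.29, edgeR adjusted p = 5.63e-10). A site near Plxna2, a semaphorin receptor gene, was at 4.60 and 4.47 CPM against 1.03 and 1.21 (2.03, SE 0.24, edgeR adjusted p = 6.76e-12). A site near Nrp1, a co-receptor for semaphorins and VEGF, rose by 1.98 (SE 0.34), and one near Tmem158 on chromosome 9 by 1.95 (SE 0.33). In each of these sites the -HOT libraries were at 1.21 CPM or lower.

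The largest falls were partly promoters. Cth codes for cystathionine gamma-lyase, which makes cysteine, and its promoter site was at 0.91 and 1.08 CPM in +HOT and 4.39 and 3.92 in -HOT (-2.07, SE 0.26, edgeR adjusted p = 2.97e-11). The promoter of Soat2, a cholesterol acyltransferase gene, was at 3.30 and 3.88 CPM against 9.94 and 9.04 (-1.41, SE 0.15, edgeR adjusted p = 1.37e-13). The promoter of Sp8, a zinc finger factor of limb outgrowth, was at 0.60 and 0.72 CPM against 1.67 and 1.84 (-1.41, SE 0.35, edgeR adjusted p = 4.55e-04). The promoter of Arfgap1, which acts on the GTPase ARF1 at the Golgi, was at 7.83 and 7.18 CPM against 15.4 and 18.5 (-1.17, SE 0.12, edgeR adjusted p = 8.85e-15). That both +HOT libraries were lower at these promoters was a condition of the rule.

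The other large falls lay in introns, in a coding exon or between genes. An intron site of Baiap2, a gene for an actin-linked scaffold, was at 0.98 and 1.04 CPM against 2.39 and 3.45 (-1.52, SE 0.28, edgeR adjusted p = 4.14e-06). A site 17481 bp from the start of Krt18, a keratin gene of simple epithelia, was at 6.32 and 6.86 CPM against 15.1 and 15.8 (-1.23, SE 0.12, edgeR adjusted p = 2.69e-15). An intron site of Nrp1 fell by 1.34 (SE 0.22) while the site near the same gene described above rose. An intron site of Pard3 fell by 1.21 (SE 0.27), one of Bahcc1 by 1.19 (SE 0.26) and a coding exon site of the osteoblast factor gene Sp7 by 1.19 (SE 0.24). The fall near Ripk4 on chromosome 16 (-1.28, SE 0.31) was not called without +HOT replicate 1, which had the lower of the +HOT values, 0.63 against 1.31 CPM.

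The strongest site of each end, by its mean over the 4 libraries, was a promoter on 15 of the 19 chromosomes, and 1 of the 19 was gained and 2 were lost. The gained one lay 15482 bp from the end of chromosome 2, near Polr3k. It was at 86.8 and 131 CPM in +HOT and 33.2 and 60.0 in -HOT, so the libraries of a group differed widely from each other (1.23, SE 0.11, edgeR adjusted p = 1.89e-17), and DESeq2 did not call it (adjusted p = 0.0579). The promoter of Fam60a, a subunit of a SIN3 co-repressor complex, fell from 37.7 and 35.2 to 21.5 and 21.0 CPM (-0.78, SE 0.10, edgeR adjusted p = 6.74e-11). The other lost one was the Gm10492 promoter on chromosome 17, which was not called with offsets that follow each site's signal (-0.27). Relative to interval length the strongest was in an exon of Lars2 at 410 CPM per kb, with 163 and 182 CPM in +HOT and 145 and 151 in -HOT, and it was not called (0.22, SE 0.09).

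Gene families at the ends were read at their promoters, with no test of a family as a whole. Over all tested promoter sites 7.07% were gained and 23.5% lost, with a median log2 fold change of -0.21, and the counts of each list are to be read against these shares. The HoxC cluster near the end of chromosome 15 codes for homeodomain factors of body patterning, and Emx2 on chromosome 19 is a homeobox gene of the forebrain. Of 15 promoter sites of these 10 genes 3 were lost, none gained and 12 not called, with a median log2 fold change of -0.04. The lost share was near that of all promoter sites (23.5%). The site at the start of Hoxc12 was at 2.14 and 1.81 CPM in +HOT and 4.31 and 4.39 in -HOT (-1.13, SE 0.22, edgeR adjusted p = 9.14e-06). The promoter sites of Hoxc9 (-0.55, SE 0.14) and Hoxc6 (-0.43, SE 0.11) were also lost, but neither was called once the GC trend was removed. Hoxc13, Hoxc11, Hoxc10, Hoxc8, Hoxc5 and Hoxc4 had no called promoter site, and none of the 26 sites nearest to a HoxC gene was gained.

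Next to it, the type II keratin cluster of chromosome 15 gave 3 gained, 1 lost and 3 uncalled sites among 7 promoter sites of 5 genes, beside 7.07% gained and 23.5% lost over all promoter sites. Those of the hair and epithelial keratins Krt82 (0.70, SE 0.19), Krt75 (0.61, SE 0.19) and Krt79 (0.43, SE 0.12) were gained, and 1 of Krt8 was lost (-0.44, SE 0.14). DESeq2 did not call the sites of Krt75, Krt79 and Krt8, and the Krt82 call ended without -HOT replicate 2. Of all 27 end sites nearest to a keratin gene 10 were gained and 4 lost, beside 21.3% and 14.2% of all tested sites.

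The chemokine receptor cluster on chromosome 9 guides leukocytes. Its Ccr1 promoter was at 3.83 and 2.84 CPM in +HOT and 1.22 and 0.94 in -HOT (1.62, SE 0.26, edgeR adjusted p = 1.87e-07). The Ccr3 promoter site was at 2.07 and 2.57 CPM against 0.67 and 0.94 (1.53, SE 0.31, edgeR adjusted p = 2.51e-05). In both sites the +HOT and -HOT libraries did not overlap, as in most called end sites. Ccr9 went the other way (-0.65, SE 0.23, edgeR adjusted p = 0.0144) but was not called by DESeq2 or with the GC trend removed. In all, 2 of the 4 promoter sites of the list were gained and 1 lost, a count of few sites beside the 7.07% and 23.5% of all promoter sites.

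On chromosome 7 the end holds an imprinted cluster, where genes are read from 1 parental copy. Of 15 promoter sites of 10 imprinted genes none was gained and 2 were lost, beside 7.07% and 23.5% over all promoter sites, and the median of -0.20 was near that of all promoter sites (-0.21). The lost ones belonged to the decoy death receptor genes Tnfrsf22, at 12.3 and 11.7 CPM in +HOT and 21.6 and 19.6 in -HOT (-0.78, SE 0.11, edgeR adjusted p = 2.07e-09), and Tnfrsf23, at 19.7 and 18.6 CPM against 28.9 and 27.1 (-0.55, SE 0.10, edgeR adjusted p = 3.22e-06). The Tnfrsf23 site was not called with offsets that follow each site's signal (-0.23). Phlda2 (-0.39, SE 0.12) and the cell cycle inhibitor gene Cdkn1c (-0.17, SE 0.15) were not called. In the TNF receptor list, with 8 promoter sites, Fadd, the adaptor of death receptors, was lost as well (-0.54, SE 0.10), though not with the GC trend removed.

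Of 7 promoter sites of fibroblast growth factor genes 2 were lost and none gained, near the 23.5% and 7.07% over all promoter sites. Fgf10, a signal for limb and lung buds, was at 17.4 and 14.4 CPM in +HOT and 26.4 and 26.4 in -HOT (-0.73, SE 0.10, edgeR adjusted p = 4.48e-09). Fgf3 was at 4.42 and 4.79 CPM against 7.42 and 6.59 (-0.61, SE 0.16, edgeR adjusted p = 7.95e-04), a call that ended with the GC trend removed.

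Among cell cycle, replication and repair genes, 5 of 14 promoter sites were lost and none gained, beside 23.5% and 7.07% of all promoter sites, with a median of -0.36 beside -0.21. The same list over all chromosomes, ends included, had 11 of 30 promoter sites lost and 0 gained, with a median of -0.32. A site upstream of Ccnd1, the gene of cyclin D1, was at 2.04 and 1.85 CPM in +HOT and 4.25 and 3.75 in -HOT (-1.04, SE 0.22, edgeR adjusted p = 6.26e-05). A second, stronger Ccnd1 site further upstream was at 37.2 and 37.8 CPM against 52.2 and 50.7 (-0.46, SE 0.09, edgeR adjusted p = 3.34e-05). This stronger site was not called with the GC trend removed, with library totals or with offsets that follow each site's signal (-0.19). The Ccnd1 site 352 bp from the start was at 14.0 and 11.7 CPM in +HOT and 14.1 and 11.5 in -HOT. It was not called (0.01, SE 0.12), nor was the remaining Ccnd1 site (-0.21, SE 0.11). Espl1, the gene of separase, was at 13.1 ± 0.69 CPM (SD, n = 2) against 19.98 ± 1.38 (-0.60, SE 0.11, edgeR adjusted p = 2.04e-06). The Espl1 site was not called with offsets that follow each site's signal (-0.31). Brca2, of homologous recombination, was lost as well (-0.47, SE 0.12), but not without +HOT replicate 1 or without -HOT replicate 1. The Brca2 site was also not called with library totals (-0.397) or with offsets that follow each site's signal (-0.23). Rtel1, a helicase that unwinds telomere loops, lies at the end of chromosome 2 and was the only gene of the telomere maintenance list with promoter sites at an end. Its start site was at 9.06 and 9.89 CPM in +HOT and 12.8 and 14.4 in -HOT (-0.52, SE 0.12, edgeR adjusted p = 1.85e-04), and its second site was not called (-0.68, SE 0.33). The start site was not called with offsets that follow each site's signal (-0.29).

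Chromatin gene promoters gave 4 lost and no gained sites of 11, beside 23.5% and 7.07% of all promoter sites. Over all chromosomes, ends included, this list had 12 of 35 promoter sites lost and 0 gained. Cbx5, which codes for the heterochromatin protein HP1 alpha, was at 28.9 and 25.6 CPM in +HOT and 37.6 and 37.3 in -HOT (-0.45, SE 0.10, edgeR adjusted p = 5.92e-05). This Cbx5 site was not called with library totals or with offsets that follow each site's signal (-0.15), and it was at -0.37 without +HOT replicate 2. Zgpat, a zinc finger repressor gene, had a site at -0.88 (SE 0.17), and Prdm16, a PR domain factor gene, had sites at -0.88 (SE 0.24) and -0.74 (SE 0.16). These 4 sites were lower in both +HOT libraries, as were most lost end sites. Stronger promoter sites of Cbx5 (-0.26, SE 0.09), Zgpat (-0.21, SE 0.10) and Prdm16 (-0.26, SE 0.11) were not called.

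Integrin and matrix genes gave 5 lost and 1 gained of 24 promoter sites, near the 23.5% and 7.07% of all promoter sites. Itga7, a laminin receptor gene, was at 6.003 and 5.06 CPM in +HOT and 10.4 and 10.6 in -HOT (-0.91, SE 0.14, edgeR adjusted p = 2.78e-08). Sites of Col20a1 (-0.86, SE 0.21), Lama5 (-0.58, SE 0.11), Plxna2 (-0.42, SE 0.10) and Itgb7 (-0.40, SE 0.11) were lost, and those of Lama5 and Plxna2 were not called with the GC trend removed. The gained Col9a3 site (0.57, SE 0.23) was not called by DESeq2 or without any 1 of the 4 libraries.

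The remaining lists held few calls, to be read against the same 23.5% lost and 7.07% gained. Of 8 ion channel promoter sites 2 were lost and 1 was gained. The lost ones were at Ano1 (-0.59, SE 0.15), not called with the GC trend removed, and at Nalcn (-0.53, SE 0.20), not called by DESeq2. Of 10 actin cytoskeleton sites 1 was lost, at Limd1 (-0.43, SE 0.10), and of 2 interferon response sites 1 was lost, at Isg15 (-0.51, SE 0.13), neither being called with the GC trend removed. None of the 8 lipid and metabolic enzyme sites, among them those of Fasn and Dhcr7, was called. No olfactory or vomeronasal receptor gene had a promoter site at an end, but 12 sites lay nearest to such genes, all on chromosome 10, and 6 of them were gained and 2 lost, beside 28.4% and 9.28% of all intergenic sites, the class of 91.7% of the 12. A site near Olfr827 was at 3.76 and 3.57 CPM in +HOT and 1.08 and 1.24 in -HOT (1.66), while a site near Vmn2r87, 6369 bp from the end, was at 13.8 and 11.9 CPM against 26.6 and 28.6 (-1.09).

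Sequence motifs were counted in the central 300 bases of each site, on both strands. The telomere repeat TTAGGG was found in 262 end sites (11.95%) and in 10.8% of all tested sites, and 59 of the 262 (22.5%) were gained and 34 (12.98%) lost, near the 21.5% and 13.9% of all sites with the repeat. The GC box GGGCGG was in 13.4% of end sites and 11.4% of all sites. Within the ends it was in 3.84% of gained and 19.9% of lost sites, beside 4.40% and 16.5% in the whole table. TGANTCA was in 22.6% of end sites and 24.7% of all sites, and CCAAT in 33.6% and 33.0%. CCAAT was in 38.2% of gained and 31.1% of lost end sites, near the 37.1% and 30.6% in the whole table. A match to these letters is a description of the sequence only.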

How the data were processed

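Deposited counts of reads per accessible interval were used for 2 +HOT and 2 -HOT libraries. Per the study's methods the authors trimmed paired reads with Trim_Galore, mapped them to mm9 with BWA, discarded duplicate, unpaired and blacklisted reads, and called narrow peaks with MACS2. The sources do not say how peaks were merged or reads counted. The columns of the authors' own fold changes and p-values, and the other deposited files, were not used. Reads per library were 28117900 and 21356440 (+HOT) and 37151163 and 30411621 (-HOT).

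Counts were scaled by the trimmed mean (TMM, factors 0.969 to 1.037) and tested with edgeR 4.0.16 in R 4.3.3 (quasi-likelihood, filterByExpr, Benjamini-Hochberg over 119603 sites), with DESeq2 1.42.0 as an alternative. SE is the log2 fold change divided by the root of F. Genes and exons came from GENCODE M1 and sequences from the matching assembly NCBIM37 (mm9). Each site was named by the nearest transcription start of a protein-coding or lincRNA gene. Windows needed at least 5 sites. Motif and GC values came from the assembly.

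The members, gene lists and rules were chosen with earlier results of these data known. Named sites were the outermost interval and the strongest site of each end, the 12 largest rises and 12 largest falls with a mean of at least 1 CPM and no overlap between groups, and, per gene list, up to 6 promoter sites by size of change. The HoxC, keratin, chemokine receptor and olfactory neighbourhoods, the Dscam body and the stretch around it, the 10 sites of chromosome 17, the outermost 100 kb of chromosome 19 and the Srms site were chosen after their values were seen. Of the sites under these rules, 2 are not reported here.

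Within each group the libraries differed beyond counting error (chi-square per degree of freedom 2.38 in +HOT and 2.22 in -HOT) and were kept as 2. Equal replicate numbers did not pair the libraries (correlation of deviations 0.04). On simulated counts for the comparison of all 119603 sites, 72% of 2-fold and 39% of 1.5-fold changes were recovered, with 4 calls among unchanged sites. In simulated windows, 20 of 20 changed ones among 1154 were recovered. Their simulated rise was larger than any rise called at the ends in the fit of all sites. Recovery of smaller window changes was not measured.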

Additional observations from a re-analysis of the deposited data

How the results depend on the processing

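The counts at the ends stayed within 1.5 times of 521 gained and 296 lost sites under the alternatives tried, except that DESeq2 called 313 gained and that 447 were lost with no fold minimum. Without single libraries 396 to 444 sites were gained and 234 to 306 lost. The replicate block gave 526 gained and 300 lost, and with the GC trend also removed 532 and 280; libraries of the same number shared only a number, with a correlation of 0.04. The median of 0.02 moved by more than the spread between library pairs to 0.0150 with DESeq2 size factors, 0.0951 with library totals, -0.0529 with factors from distal sites, 0.0695 with the GC trend removed, 0.0699 with the block too, and 0.104 with signal-following offsets; without single libraries it was 0.0221 to 0.0435. Widths of 1 Mb and 4 Mb gave 23.5% and 21.7% gained, the assembly end 23.8%, and, chosen after seeing the data, leaving out chromosome 16 or the outermost 100 kb 22.5% and 23.4%. For windows the ends higher and lower, 3 and 9, became 9 and 8 with library totals or with TMM of the windows, 10 and 5 with distal sites, and 5 and 10 with the replicate block; without single libraries 0 to 4 were higher and 3 to 10 lower. The end of chromosome 3 turned to 0.0569 with distal sites and that of chromosome 4 to 0.0208 without the GC trend. The end of chromosome 6 turned to 0.0422 with library totals, 0.0361 with TMM of the windows and 0.175 with distal sites, that of chromosome 9 to 0.0745 with distal sites, and that of chromosome 19 to 0.0679, 0.0618 and 0.152 in the same 3 settings. The difference in the share of reads, -0.0086 percentage points, turned to 0.0657 with distal sites and 0.00804 with reads on chromosomes 1 to 19 as the base; without single libraries it ran from -0.0155 to -0.00166. Of 2301 values of 177 named sites 2114 kept direction and call, 136 lost the call, 51 gained one and none reversed. The cause of these changes was not tested. With 2 libraries a group, changes under 2-fold at weak sites were often below detection.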

Other observations

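Chromosome X was outside the rule. Its outermost 2 Mb held 120 sites, of which 30 were gained and 5 (4.17%) lost, beside 24.0% and 10.2% of the 2869 sites on the whole chromosome. A site 543 bp from the end was at 1.26 and 3.66 CPM in +HOT and 0.69 and 1.04 in -HOT, and a site 1568 bp from the end at 2.07 and 3.25 CPM against 0.78 and 1.14. In both sites the +HOT libraries differed from each other more than the -HOT libraries did.

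The genes that maintain telomeres lie mostly away from the ends. Of 25 such genes with a promoter site, read at the strongest site of each, none was gained and 4 were lost, beside 7.07% and 23.5% of all promoter sites. Besides Rtel1 these were Blm, a RecQ helicase gene (-0.44, SE 0.10, edgeR adjusted p = 1.15e-04), Obfc1, of the CST complex (-0.42, SE 0.10, edgeR adjusted p = 2.42e-04), and Dkc1, the dyskerin gene (-0.41, SE 0.11, edgeR adjusted p = 8.2e-04). The promoter of Tert, the reverse transcriptase of telomerase, was at 9.93 and 9.30 CPM in +HOT and 10.1 and 9.94 in -HOT and was not called (-0.06, SE 0.12). Those of the shelterin genes Terf1 (-0.19, SE 0.10), Terf2 (-0.10, SE 0.10), Terf2ip (-0.18, SE 0.10), Tinf2 (-0.16, SE 0.10) and Acd (-0.14, SE 0.10) were not called either. Pot1a (-0.26, SE 0.10, edgeR adjusted p = 0.0272) and Pot1b (-0.33, SE 0.11, edgeR adjusted p = 0.00963) missed the call only through the fold minimum. Of the 25 genes 19 (76.0%) were lower in both +HOT libraries than in both -HOT libraries, beside 59.0% of all promoter sites.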
